A study of Mus musculus with 22 samples.

Results

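The mouse genes described here are Cd14, Ly96 and 8 Toll-like receptors (Tlr1, Tlr2, Tlr3, Tlr4, Tlr6, Tlr7, Tlr8 and Tlr9), chosen by symbol. They are 10 of the 55487 genes in each count table and were found by their Ensembl identifiers. By the known location of the proteins they were divided into 2 co-receptors (Cd14 and Ly96), 4 surface receptors (Tlr1, Tlr2, Tlr4 and Tlr6) and 4 endosomal receptors (Tlr3, Tlr7, Tlr8 and Tlr9). Polyadenylated RNA of male, wild type C57BL/6 mouse spleen cells was sequenced in 22 libraries. The groups were 6 libraries of primary monocytes with vehicle (replicates 1 to 6), 5 of primary monocytes with oxidised low-density lipoprotein (ox-LDL) at 50 µg/mL (7 to 11), 5 of macrophages with vehicle (A to E) and 6 of macrophages with ox-LDL at 50 µg/mL (G to L). The macrophages had been made from splenic monocytes with phorbol myristate acetate (PMA) at 200 ng/mL for 5 days, so every macrophage library, controls included, carries PMA, and no monocyte library does. Vehicle and ox-LDL were both given for 24 h. The age of the mice, and whether cells of several mice were pooled, is not given in the sources used here. Whether replicates are separate mice or cultures is not labelled either. The p-values therefore weigh group differences only against the spread among these libraries, and that spread may be technical.

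Toll-like receptors recognise microbial molecules and some host ones and signal mostly through the adaptor MyD88. TLR4 binds lipopolysaccharide with MD-2, the product of Ly96, after CD14 has passed the lipid on, and TLR2 pairs with TLR1 or TLR6 to bind bacterial lipopeptides. TLR3, TLR7, TLR8 and TLR9 sit in endosomes and bind nucleic acids. These are long RNA duplexes for TLR3, RNA breakdown products for TLR7 and human TLR8, and unmethylated CpG DNA for TLR9. Monocytes and macrophages use them to sense pathogens, and TLR4 and TLR6 together with the scavenger receptor CD36 are known to respond to ox-LDL.

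Sequences are shown for 3 endosomal receptors that differed between the cell types in opposite directions: Tlr3 and Tlr8 were higher and Tlr9 lower in macrophages. Each is the 250 bases before the gene's start in RefSeq on the strand of the gene, with matches to the 4 motifs searched in capitals. The windows are chr8:45410381-45410630 for Tlr3, chrX:167264330-167264579 for Tlr8 (both minus strand) and chr9:106222348-106222597 for Tlr9 (plus strand), in GRCm38.p6.
Tlr3: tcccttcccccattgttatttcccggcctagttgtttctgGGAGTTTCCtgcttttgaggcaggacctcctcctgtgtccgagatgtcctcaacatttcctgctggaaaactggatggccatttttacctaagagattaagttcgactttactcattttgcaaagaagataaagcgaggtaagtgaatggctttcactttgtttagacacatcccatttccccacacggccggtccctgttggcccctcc
Tlr8: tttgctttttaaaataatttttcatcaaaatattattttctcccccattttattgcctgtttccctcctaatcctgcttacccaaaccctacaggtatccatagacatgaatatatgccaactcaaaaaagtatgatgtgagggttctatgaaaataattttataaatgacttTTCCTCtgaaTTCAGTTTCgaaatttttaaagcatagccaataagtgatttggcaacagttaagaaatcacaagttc
Tlr9: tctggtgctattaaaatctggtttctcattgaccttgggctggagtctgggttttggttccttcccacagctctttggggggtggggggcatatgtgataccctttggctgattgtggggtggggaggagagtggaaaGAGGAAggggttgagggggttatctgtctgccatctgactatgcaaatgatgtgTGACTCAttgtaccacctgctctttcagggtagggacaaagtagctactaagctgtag
The motifs were searched on both strands. GAGGAA, the core bound by PU.1 and related ETS factors, is in 23.3% of the 32851 RefSeq promoter windows of this length. TGANTCA, the AP-1 element through which PMA is known to act on many genes, is in 6.75%. GAAANNGAA, a form of the interferon-stimulated response element, is in 7.13%, and GGANTTTCC, a form of the NF-kappaB element, in 1.07%. The Tlr3 window held GGAGTTTCC at positions -210 to -202 from the start. The RefSeq start used for Tlr3 lies inside the gene as counted (45395665 to 45411080), so this window is inside it too. The Tlr8 window held the first of these on the other strand, read as TTCCTC, at -77 to -72 and the interferon form on the other strand, read as TTCAGTTTC, at -67 to -59. The Tlr9 window held GAGGAA at -112 to -107 and TGACTCA, which reads the same on both strands as a match, at -58 to -52. Of the other members in the RefSeq table, Tlr1 held GAGGAA at -23 to -18, and Tlr2 and Tlr6 held none of these letters. A match describes the letters and is no evidence of binding.

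Tlr1 and Tlr6 lie next to each other on chromosome 5 and share identical sequence in more than 1 place, which limits how their counts can be separated. The longest identical stretch, all of it coding, has 229 bases. It is chr5:64925537-64925765 in Tlr1 (exon 4 of 4) and chr5:64953828-64954056 in Tlr6 (exon 2 of 2), both on the minus strand of GRCm38.
Tlr1 and Tlr6: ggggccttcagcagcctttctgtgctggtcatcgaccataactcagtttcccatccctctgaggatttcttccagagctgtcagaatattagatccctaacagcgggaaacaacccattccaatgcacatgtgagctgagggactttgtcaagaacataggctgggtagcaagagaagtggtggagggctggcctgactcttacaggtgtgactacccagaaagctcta
Of all 50-base windows, 13.6% of the Tlr1 transcript and 12.3% of the Tlr6 transcript were present in the other. At 100 bases the shares were 7.89% and 7.09%. How reads that map to both were counted is not given in the sources used here, so the levels of this pair are less certain than those of the other 8 members, which shared no 50-base window with another member.

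Each library held between 37.3 and 50.3 times 1000000 counts, and the 10 members were detected in every library. Levels are given in TPM, transcripts scaled to a common total, which is also scaled by gene length and so can be compared between genes. The labelled cell types were compared with marker lists. All 12 macrophage markers reached a mean of 1 TPM in every group, and their summed level was 32930 to 39610 TPM in macrophages with vehicle, 30370 to 41000 with ox-LDL, 7336 to 14500 in monocytes with vehicle and 12320 to 16910 with ox-LDL. All 10 monocyte markers reached 1 TPM in both monocyte groups, but their sum was lower there (732 to 1213 TPM with vehicle and 775 to 989 with ox-LDL) than in macrophages (1972 to 3322 and 1412 to 2646). Fcgr1 is in both of these lists, so the sums are not separate measures of the cell types. Monocyte libraries also held 16760 to 119000 TPM of 12 neutrophil markers with vehicle and 14950 to 110500 with ox-LDL, while macrophages held 155 to 245 and 129 to 294. The 4 monocyte libraries 5, 6, 10 and 11 stood apart as the high ones. Erythroid markers summed to 1727 to 40320 and 2553 to 52440 TPM in monocytes and to at most 8.36 in macrophages. They split the monocyte libraries a second way, seen after the values: replicates 1, 2 and 7 had 1727 to 3115 TPM and the other 8 had 22260 to 52440. The same 3 libraries were high in B cell markers (1071 to 1458 TPM against 309 to 627) and plasmacytoid dendritic cell markers (795 to 974 against 319.5 to 512). Conventional dendritic cell markers summed to 6358 to 13050 and 7059 to 12300 TPM in monocytes and to 40.8 to 161 in macrophages, and T and NK cell markers to 40.8 to 172 in monocytes and to at most 0.294 in macrophages. In bulk RNA, more cells of a type and more RNA per cell cannot be told apart.

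The members differed widely in level within each group. In monocytes with vehicle the order by mean was Tlr2 (143 ± 39.8 TPM, SD, n = 6), Cd14 (142 ± 47.6), Tlr1 (64.3 ± 15.5), Ly96 (56.0 ± 8.32), Tlr6 (14.5 ± 2.14), Tlr4 (13.9 ± 4.14), Tlr7 (13.2 ± 3.35), Tlr8 (12.8 ± 4.46), Tlr9 (3.67 ± 1.39) and Tlr3 (0.409 ± 0.237). Tlr2 and Cd14 overlapped, as did Tlr1 and Ly96, and so did each neighbour from Tlr6 through Tlr4 and Tlr7 to Tlr8. The steps from Cd14 to Tlr1, from Ly96 to Tlr6 and from Tlr9 to Tlr3 were without overlap. In monocytes with ox-LDL, Cd14 (157 ± 38.8 TPM, n = 5) and Tlr2 (121 ± 11.9) again led, and the same 4 receptors from Tlr6 to Tlr8 lay between 11.3 and 16.8 TPM on average.

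Macrophages had another order. With vehicle it ran from Cd14 (718 ± 76.1 TPM, n = 5) and Tlr2 (212 ± 29.9) to Tlr8 (107 ± 10.0), Tlr7 (85.3 ± 12.2), Tlr4 (56.5 ± 6.59), Ly96 (42.3 ± 4.68), Tlr1 (17.5 ± 5.17), Tlr6 (15.98 ± 2.43), Tlr3 (6.80 ± 1.21) and Tlr9 (0.797 ± 0.194). Only 3 neighbouring pairs overlapped there: Tlr8 with Tlr7, Tlr4 with Ly96 and Tlr1 with Tlr6. With ox-LDL the order was the same apart from Tlr6 (15.97 ± 2.44 TPM, n = 6) standing before Tlr1 (14.4 ± 4.67), and Tlr2 (165 ± 62.1) then also overlapped Tlr8 (96.6 ± 10.9). Cd14 was still the highest member, at 355 ± 50.2 TPM.

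**Figure D1:**
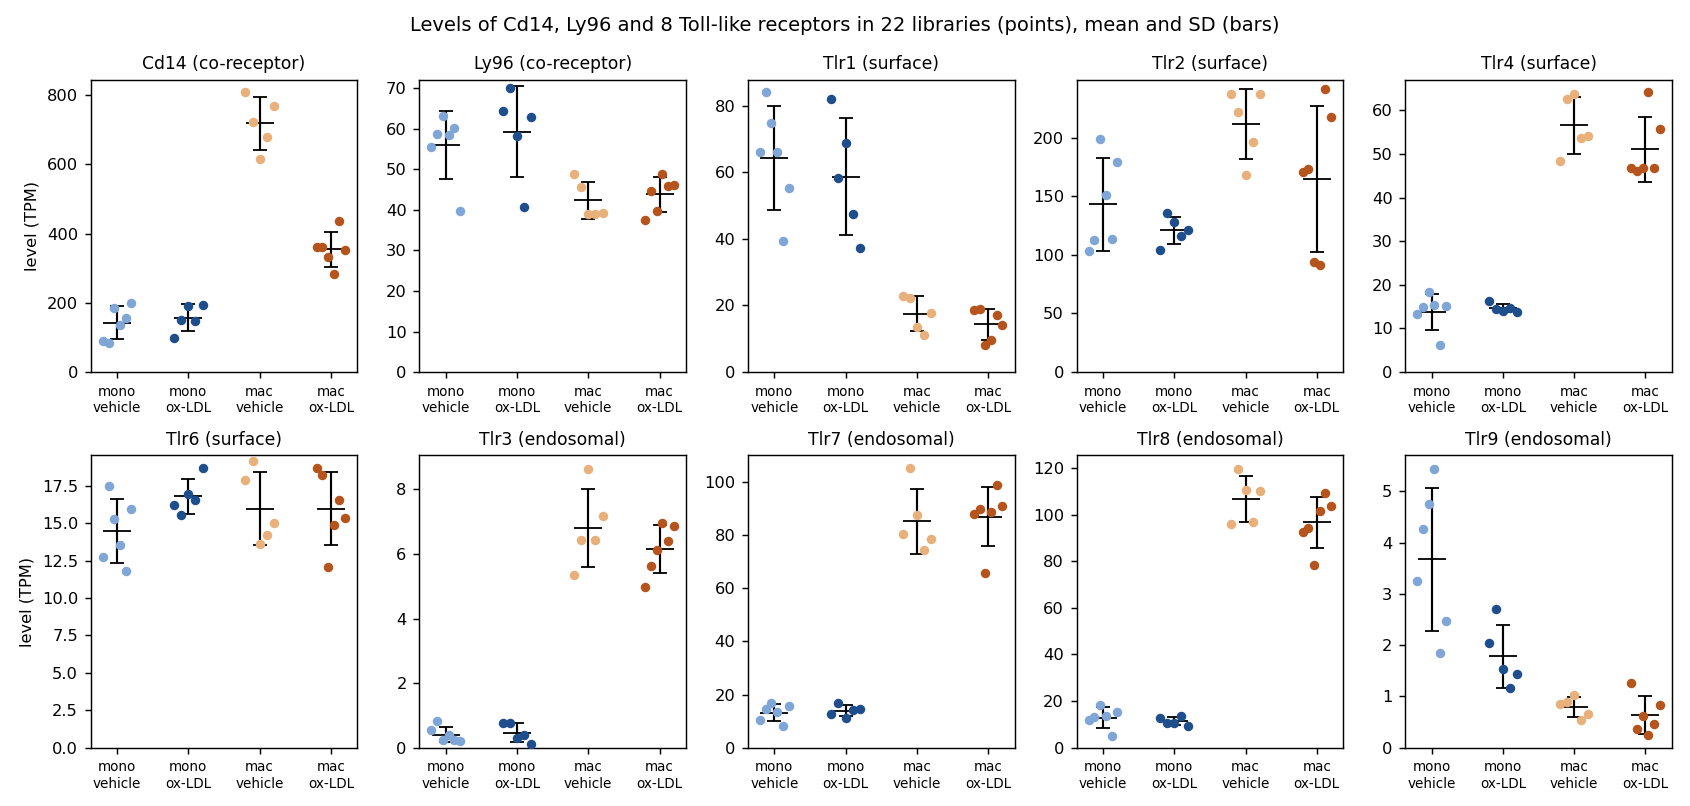
Level in TPM (vertical axes, each from 0) of the 10 members in the 22 libraries, 1 panel a gene. Points are libraries, and bars give the mean and SD of a group; mono is monocytes and mac is macrophages. Cd14 in macrophages lies at 614 to 808 TPM with vehicle and 282 to 437 with ox-LDL, while Tlr3, Tlr4, Tlr7 and Tlr8 are higher in every macrophage library than in any monocyte library.

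The sum over the surface receptors was compared with the sum over the endosomal receptors in each library, as a description with no test. The surface sum was 236 ± 49.1 TPM in monocytes with vehicle (SD, n = 6), 211 ± 17.3 in those with ox-LDL (n = 5), 302 ± 32.6 in macrophages with vehicle (n = 5) and 246 ± 64.6 in ox-LDL macrophages (n = 6). The endosomal sum was 30.1 ± 8.62, 27.6 ± 2.81, 199.6 ± 21.7 and 190.4 ± 21.9 TPM in the same order. The surface sums overlapped between the cell types with vehicle (171 to 307 TPM in monocytes and 259 to 326 in macrophages) and with ox-LDL (190.5 to 228 and 161 to 322). The endosomal sums of the cell types lay far apart, with 40.02 TPM the highest in a monocyte library and 151 the lowest in a macrophage library.

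The ratio of surface to endosomal sums of the members was higher in every monocyte library than in any macrophage library. In monocytes with vehicle it was 6.99 at the lowest, 7.57 at the median and 11.4 at the highest, and in monocytes with ox-LDL it was 7.77, 7.24, 9.56, 6.62 and 7.38 in replicates 7 to 11. In macrophages with vehicle it was 1.79, 1.41, 1.24, 1.54 and 1.65 in replicates A to E, and with ox-LDL the lowest, median and highest were 0.91, 1.36 and 1.497. Replicate J was the only library in which the endosomal sum (197.6 TPM) exceeded the surface sum (179.8 TPM). Means were 8.14 ± 1.61, 7.72 ± 1.11, 1.53 ± 0.210 and 1.28 ± 0.241. With Tlr1 and Tlr6 left out of the surface sum, the means were 5.42 and 4.95 in monocytes and 1.36 and 1.12 in macrophages. As a ratio of geometric means of TPM + 1, which gives each receptor the same weight, the means were 6.45, 7.24, 2.33 and 2.15 in the same order. The size of the ratio also rests on which receptors are counted. Tlr13, an endosomal receptor outside the members, took the means to 1.48 ± 0.187, 1.19 ± 0.309, 0.621 ± 0.137 and 0.456 ± 0.120 when added to the endosomal sum. The lowest monocyte library (0.824) was then just above the highest macrophage library (0.804).

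Within each class the makeup differed too. Tlr2 made up 60.3 ± 7.60% of the surface sum in monocytes with vehicle and 70.0 ± 3.51% in macrophages with vehicle, ranges that overlapped. Tlr7 and Tlr8 together made up 86.3 ± 3.29% of the endosomal sum in monocytes with vehicle, 91.9 ± 2.53% with ox-LDL, 96.2 ± 0.580% in macrophages with vehicle and 96.4 ± 0.494% with ox-LDL. The ratio of Tlr1 to Tlr6, the alternative partners of TLR2, was 4.43 ± 0.808 in monocytes with vehicle and 1.08 ± 0.194 in macrophages with vehicle. Ly96 to Tlr4, the parts of the lipopolysaccharide receptor, stood at 4.64 ± 2.60 and 0.7601 ± 0.1501, so Ly96 outnumbered Tlr4 in every monocyte library but in only 1 of the 5 macrophage libraries with vehicle (replicate A, 1.01).

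**Figure D2:**
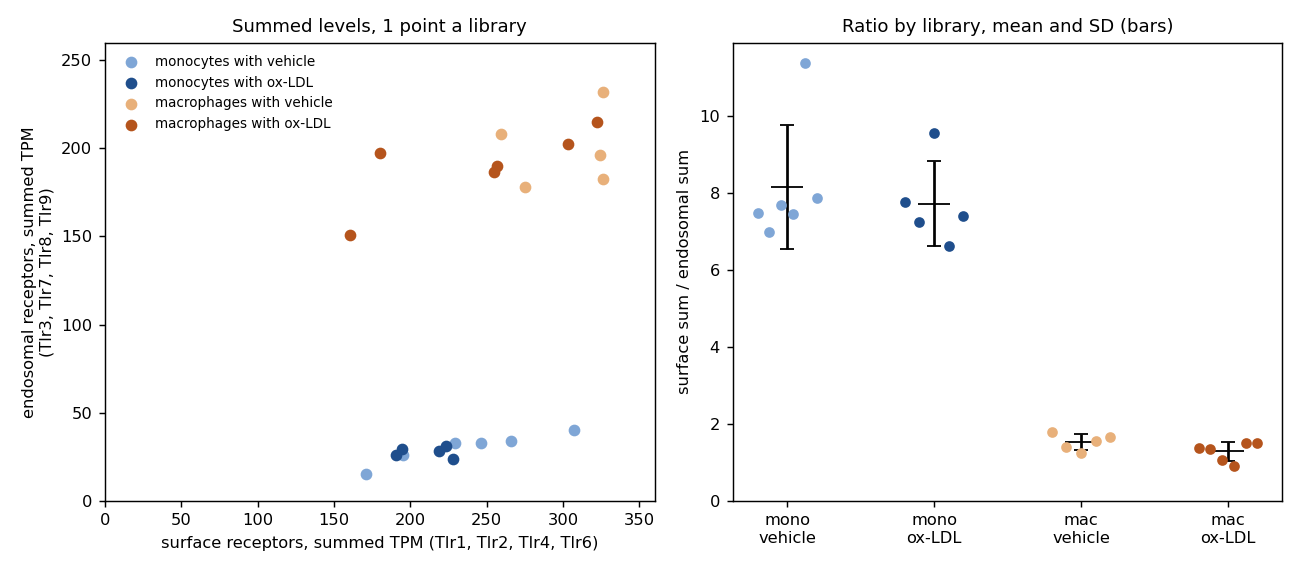
Left, the summed TPM of the 4 endosomal receptors (vertical axis) against that of the 4 surface receptors (horizontal axis), 1 point a library. Right, their ratio by library, with bars for the mean and SD of each group. The cell types part on the endosomal axis, and the mean ratio is 8.14 and 7.72 in monocytes and 1.53 and 1.28 in macrophages.

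Macrophages were compared with monocytes, first with vehicle, to ask how the receptors differ between the cell types. Tlr3, Tlr8, Tlr7, Cd14, Tlr4 and Tlr2 were higher in macrophages, and Tlr9, Tlr1 and Ly96 were lower. That makes 9 of 10 members called at an adjusted p under 0.05 in edgeR's quasi-likelihood test, where 63.7% of the 16288 genes tested were called (28.5% higher and 35.1% lower). The median log2 fold change of the members was 1.25, beside -0.09 over all genes. With ox-LDL in both cell types, 8 of 10 members were called, 5 higher and 3 lower, where 65.4% of 15825 genes were called. The same libraries also enter the comparisons of ox-LDL with vehicle. Without the 4 monocyte libraries high in neutrophil markers the counts were again 9 and 8, where 10539 of 16291 and 10665 of 16358 genes were called. Without the 3 low in erythroid markers they were 8 and 8, where 10051 of 16213 and 10148 of 16050 genes were called. The part of the other marker lists in these differences was not tested.

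Among the co-receptors, Cd14 (ENSMUSG00000051439; GRCm38 chromosome 18, 36725067 to 36726798), which captures lipopolysaccharide, stood at 84.7 TPM at the lowest, 145 at the median and 199.9 at the highest in monocytes with vehicle. It was at 808, 723.5, 614, 678 and 769 TPM in macrophage replicates A to E. The groups did not overlap, and the log2 fold change was 2.26 ± 0.25 (SE; adjusted p = 3.2e-06). With ox-LDL it was 1.07 ± 0.21 (adjusted p = 0.00043), again without overlap. Ly96 (ENSMUSG00000025779; chromosome 1, 16688051 to 16709611), which encodes MD-2, went the other way: 39.8 to 63.2 TPM in monocytes with vehicle and 38.9 to 48.9 in macrophages with vehicle. Its groups overlapped, and the fold change of -0.46 ± 0.16 (adjusted p = 0.018) lost its call with no filter on low counts (adjusted p = 0.076) and without any of replicates 5, C, D and E (0.051 to 0.088). With ox-LDL it was lower in macrophages by a log2 fold change of -0.52 ± 0.14 (adjusted p = 0.0061), called under each alternative run.

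Of the surface receptors, Tlr4 (ENSMUSG00000039005; chromosome 4, 66827584 to 66930284), the lipopolysaccharide receptor, had 6.13 TPM at the lowest, 15.1 at the median and 18.4 at the highest in monocytes with vehicle and 48.3, 62.7, 63.9, 53.7 and 54.1 TPM in macrophages A to E. Every macrophage library lay above every monocyte library, and the log2 fold change was 1.99 ± 0.17 with vehicle (adjusted p = 2.3e-07) and 1.72 ± 0.10 with ox-LDL (1.3e-08). Tlr1 (ENSMUSG00000044827; chromosome 5, 64924679 to 64933563), which pairs with TLR2, moved in the opposite direction. It was at 39.5 TPM at the lowest, 66.2 at the median and 84.0 at the highest in monocytes with vehicle and at 22.8, 22.3, 13.6, 11.1 and 17.9 TPM in macrophages A to E. Every macrophage library lay below every monocyte library, with log2 fold changes of -1.89 ± 0.21 (adjusted p = 2.8e-06) and, with ox-LDL, -2.07 ± 0.24 (4.6e-06).

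Tlr2 (ENSMUSG00000027995; chromosome 3, 83836272 to 83841767), the shared partner in lipopeptide sensing, differed less. Its level was 103 TPM at the lowest, 132 at the median and 199 at the highest in monocytes with vehicle and 237, 222, 168, 196 and 237 TPM in macrophages A to E, so the groups overlapped. The log2 fold change with vehicle was 0.51 ± 0.19 (adjusted p = 0.03). That call was lost with library totals in place of TMM factors (adjusted p = 0.058) and without any of replicates 1, 2, A, B and E (0.051 to 0.065). Without the monocyte libraries low in erythroid markers the value was 0.31 ± 0.16 (adjusted p = 0.12). With ox-LDL the value was 0.36 ± 0.24 (adjusted p = 0.21). Tlr6 (ENSMUSG00000051498; chromosome 5, 64952031 to 64960097), the other partner of TLR2, had 11.8 to 17.5 TPM in monocytes and 13.6 to 19.2 in macrophages with vehicle, with log2 fold changes of 0.09 ± 0.14 and, with ox-LDL, -0.16 ± 0.15. The 95% intervals of these values, from the SE, were -0.17 to 0.36 and -0.45 to 0.13.

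Tlr3, Tlr8 and Tlr7 held the widest differences. Tlr3 (ENSMUSG00000031639; chromosome 8, 45395665 to 45411080), which binds RNA duplexes, was at 0.224 TPM at the lowest, 0.321 at the median and 0.82 at the highest in monocytes with vehicle, from 22 to 64 counts a library. In macrophages A to E it was at 5.35, 6.42, 8.62, 6.44 and 7.17 TPM, from 431 to 647 counts. The groups stood well apart, and the log2 fold change was 4.03 ± 0.29 (adjusted p = 3.8e-08), or 3.69 ± 0.33 with ox-LDL (4.3e-07). Tlr3 remained the lowest member in monocytes, and in macrophages it was above Tlr9 alone.

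Tlr7 (ENSMUSG00000044583) and Tlr8 (ENSMUSG00000040522) lie on the X chromosome at 167304929 to 167330558 and 167242696 to 167264329. Tlr7 had 8.02, 14.1 and 16.8 TPM as the lowest, median and highest level in monocytes with vehicle and 80.5, 105, 87.8, 74.3 and 78.6 TPM in macrophages A to E. Tlr8 had 4.90, 13.4 and 18.2 TPM in those monocytes and 96.1, 119.6, 111, 97.0 and 110.0 TPM in those macrophages. Neither gene's groups overlapped. For Tlr7 the log2 fold change was 2.64 ± 0.15 with vehicle (adjusted p = 5.2e-09) and 2.55 ± 0.16 with ox-LDL (1.4e-08), and for Tlr8 it was 3.02 ± 0.21 (3.1e-08) and 3.02 ± 0.11 (1.3e-10). The ratio of Tlr7 to Tlr8 was 1.10 ± 0.275 in monocytes and 0.798 ± 0.0639 in macrophages with vehicle.

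Tlr9 (ENSMUSG00000045322; chromosome 9, 106222598 to 106226883), the CpG DNA sensor, was the endosomal receptor among the members that was lower in macrophages. It had 1.85, 3.76 and 5.44 TPM as the lowest, median and highest level in monocytes with vehicle and 0.85, 0.892, 1.04, 0.547 and 0.658 TPM in macrophages A to E, from 28 to 57 counts. The groups did not overlap, and the log2 fold change was -2.23 ± 0.27 (adjusted p = 6e-06). With ox-LDL it was -1.56 ± 0.38 (0.0026), and there the ranges did overlap. TLR9 is known from B cells and plasmacytoid dendritic cells. Summed B cell markers were higher in every monocyte library than in any macrophage library. Summed plasmacytoid dendritic cell markers had a higher mean in monocytes, but their ranges overlapped between the cell types. All 10 B cell markers reached 1 TPM in monocytes with vehicle (sum 343 to 1458 TPM) and 2 did in macrophages with vehicle (26.6 to 32.3, with Pax5 and Fcer2a at 0 counts). Of 9 plasmacytoid dendritic cell markers 6 reached 1 TPM in monocytes (355.5 to 974) and 4 in macrophages (275 to 357). Their part in the Tlr9 difference was not tested.

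**Figure D3:**
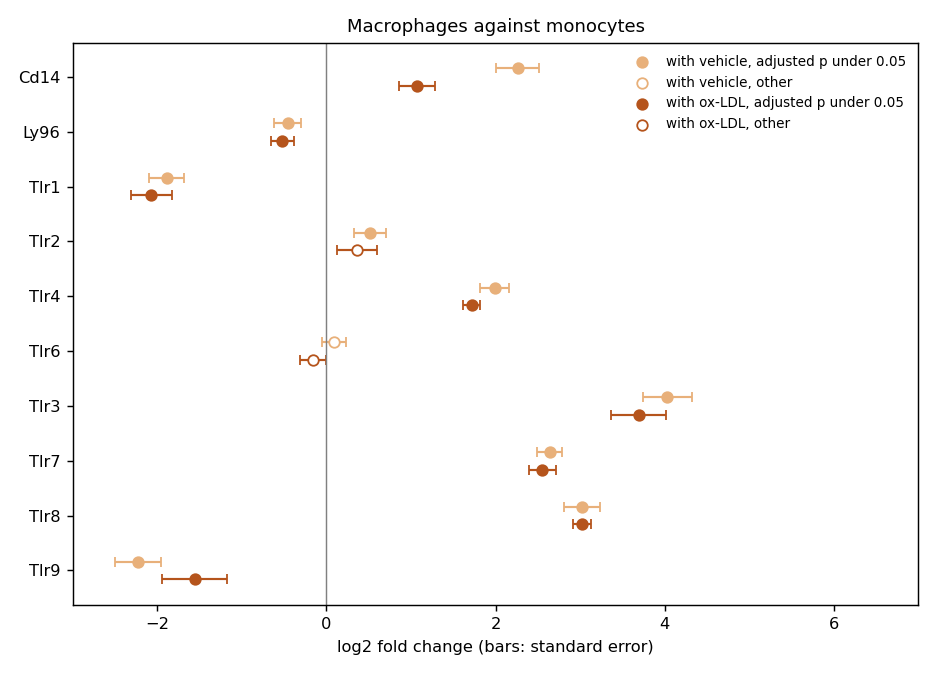
Log2 fold change of each member in macrophages against monocytes (horizontal axis), with vehicle and with ox-LDL. Bars are standard errors, filled points have an adjusted p under 0.05 and open points do not. Tlr3, Tlr7 and Tlr8 lie between 2.55 and 4.03, Cd14 lies at 2.26 with vehicle and 1.07 with ox-LDL, and Tlr1 and Tlr9 lie between -2.23 and -1.56.

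Ox-LDL was compared with vehicle in macrophages to ask how the receptors differ between these treatments. Cd14 fell, and it was the only one of the 10 members called. Over all genes 2.35% of 14543 were called (142 genes or 0.976% higher and 200 or 1.38% lower; 92 and 334 with library totals in place of TMM factors), and a count of 1 of 10 says nothing of the members as a group. In macrophages with vehicle Cd14 was at 808, 723.5, 614, 678 and 769 TPM in A to E, and with ox-LDL it was at 282 TPM at the lowest, 356 at the median and 437 at the highest. Every ox-LDL library was below every vehicle library, and the log2 fold change was -1.02 ± 0.12 (SE; adjusted p = 0.00076). The call was kept in each alternative except the fit over all 4 groups, which takes its spread from the monocyte libraries too (the same -1.02, now ± 0.24; adjusted p = 0.064). The level with ox-LDL was still above every monocyte library.

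The macrophage libraries fell into a set of 7 (A, B, E, G, H, K and L) and a set of 4 (C, D, I and J) on the first principal component of their differences from the group means, which held 44.5% of that variance. The labels name no batch, the members themselves entered that component, and both treatments are in both sets. Cd14 was lower in the set of 4 in both treatments, yet the ox-LDL difference was alike within the sets. In the set of 7 it went from 724 to 808 TPM with vehicle to 352 to 437 with ox-LDL, a log2 fold change of -1.04 ± 0.11 (adjusted p = 0.00053). In the set of 4 it went from 614 and 678 to 334 and 282 TPM, -1.02 ± 0.12 (8.9e-06). Summed monocyte markers overlapped between the treatments, with 1972 to 3322 TPM with vehicle and 1412 to 2646 with ox-LDL, and their part in the Cd14 difference was not tested.

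Tlr2 was the member whose call changed between these sets. With vehicle it was at 237, 222, 168, 196 and 237 TPM in A to E, and with ox-LDL at 91.1 TPM at the lowest, 172 at the median and 241.5 at the highest. The groups overlapped, and the log2 fold change was -0.37 ± 0.24 (adjusted p = 0.53). In the set of 4, Tlr2 was at 168 and 196 TPM with vehicle and at 93.8 and 91.1 with ox-LDL, a fold change of -0.93 ± 0.11 (adjusted p = 2.3e-05, with 2 libraries a group). In the set of 7 it was -0.23 ± 0.11 (adjusted p = 0.34), with overlapping levels of 222 to 237 and 171 to 241.5 TPM. With the set as a covariate it was -0.50 ± 0.12 (adjusted p = 0.026). These fits were added after the data were seen, and the difference between the sets was not tested. Among members not called in either set, Tlr9 was at -0.17 in the set of 7 and -0.77 in the set of 4, and Ly96 at -0.06 and 0.24.

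**Figure D4:**
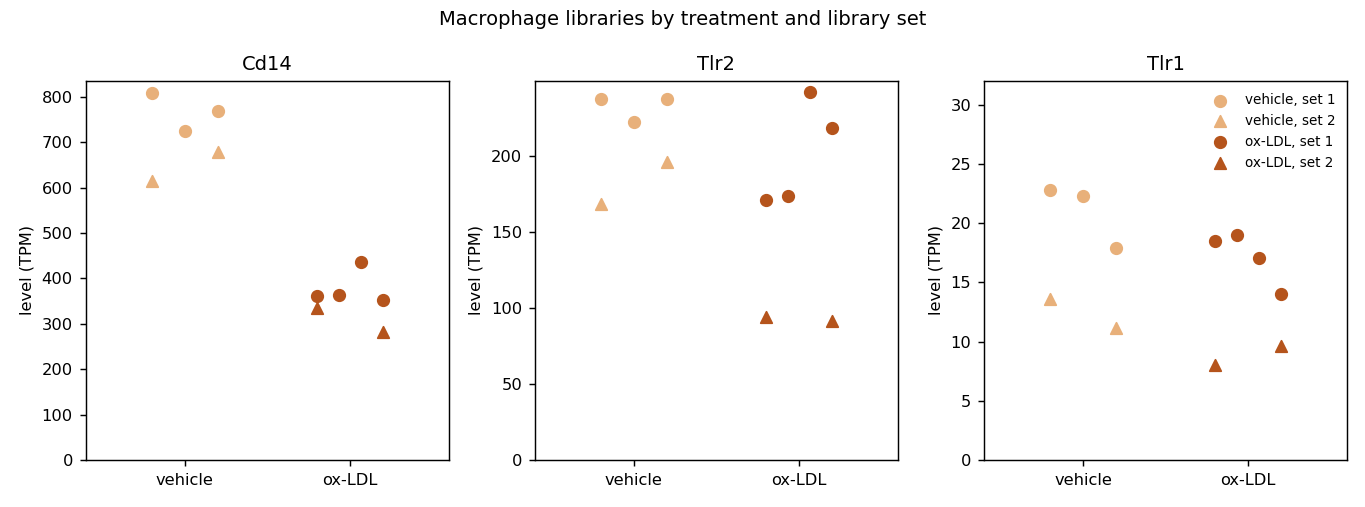
Levels of Cd14, Tlr2 and Tlr1 in TPM (vertical axes, from 0) in the 11 macrophage libraries by treatment, with circles for the set of 7 libraries and triangles for the set of 4. Cd14 falls in both sets, while Tlr2 with ox-LDL lies at 91.1 and 93.8 in the set of 4 and at 171 to 241.5 in the set of 7.

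The other 8 members had values of -0.33 to 0.05 on the log2 scale with ox-LDL in macrophages, with adjusted p between 0.49 and 1.0. Tlr4 was at 48.3 to 63.9 TPM with vehicle and 46.2 to 64.1 with ox-LDL (log2 fold change -0.14 ± 0.09), and Ly96 at 38.9 to 48.9 and 37.6 to 49.0 TPM (0.05 ± 0.11). The ratio of Cd14 to Tlr4 was thus 12.9 ± 2.7 in the vehicle group (n = 5, range 9.62 to 16.7) and 7.13 ± 1.67 in the ox-LDL group (n = 6, range 4.397 to 9.34). The endosomal receptors gave narrow intervals apart from Tlr9. These ran from -0.18 to 0.25 for Tlr7, from -0.29 to 0.02 for Tlr8, from -0.33 to 0.07 for Tlr3 and from -1.05 to 0.39 for Tlr9, which had 13 to 60 counts a library with ox-LDL. Tlr1 was at 11.1 to 22.8 and 7.98 to 19.0 TPM (-0.29 ± 0.26) and Tlr6 at 13.6 to 19.2 and 12.1 to 18.7 TPM (0.00 ± 0.14).

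In monocytes, ox-LDL against vehicle gave 0 of 10 members called by edgeR, where 0.0241% of 16575 genes were called (4 higher and 0 lower; 5 and 1 with library totals). At an unadjusted p under 0.05 there was 1 member, Tlr9, and 1718 genes, and DESeq2 called 1 member, again Tlr9, and 133 genes. With limma voom 0 members and 7 genes were called. Tlr9 was at 1.85, 3.76 and 5.44 TPM as the lowest, median and highest level with vehicle and at 2.04, 2.71, 1.54, 1.16 and 1.44 TPM in replicates 7 to 11 with ox-LDL. The groups overlapped through vehicle replicates 5 and 6 (1.85 and 2.47 TPM), which are among the libraries high in neutrophil markers. The log2 fold change was -0.98 ± 0.26 (SE; adjusted p = 0.24), with DESeq2 -1.0 ± 0.27 (adjusted p = 0.035). Over the alternatives the value ran from -1.17 to -0.75.

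Within the 7 monocyte libraries low in neutrophil markers, Tlr9 was at 3.26 to 5.44 TPM with vehicle and 1.54 to 2.71 with ox-LDL, without overlap (-1.04 ± 0.27; adjusted p = 0.12). Within the 4 high ones it was at 1.85 and 2.47 against 1.16 and 1.44 TPM, also without overlap (-0.75 ± 0.39; adjusted p = 1.0). In the edgeR fit over all monocyte libraries with the neutrophil set as a covariate, Tlr9 was at -0.93 ± 0.21 (adjusted p = 0.062), again not called. Summed B cell markers were 343 to 1458 TPM with vehicle and 309 to 1071 with ox-LDL, and plasmacytoid dendritic cell markers 355.5 to 974 and 319.5 to 815. Their part in the Tlr9 values was not tested.

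Cd14 gave no such difference in monocytes. It was at 84.7, 145 and 199.9 TPM as the lowest, median and highest with vehicle and at 99.4, 150.5, 191, 148 and 195 TPM in replicates 7 to 11, overlapping over nearly the whole range, with a log2 fold change of 0.17 ± 0.31 (interval -0.43 to 0.78). Cd14 went with the erythroid split: 84.7 to 99.4 TPM in replicates 1, 2 and 7 and 135 to 199.9 in the other 8 libraries. These levels did not overlap, but with ox-LDL the low side is replicate 7 alone. Tlr2 parted only narrowly (103 to 112.8 TPM in those 3 against 113.2 to 199), and the other 8 members overlapped. How many of all genes part in the same way was not counted. Without replicates 1, 2 and 7 the ox-LDL value of Cd14 was 0.04 ± 0.21 (adjusted p = 0.98), and that of Tlr9 was -1.02 ± 0.34 (0.49). The part of the other cells in these levels was not tested. The other members had values between -0.20 and 0.27, with adjusted p of 0.57 to 0.91. Tlr6 had the highest of these, at 11.8 to 17.5 TPM with vehicle and 15.5 to 18.7 with ox-LDL. Tlr4 was at 6.13 to 18.4 and 13.8 to 16.2 TPM, and the low value came from replicate 5. Intervals were -0.60 to 0.19 for Tlr2, -0.19 to 0.48 for Tlr4 and -0.21 to 0.50 for Tlr7. Changes within those bounds are not excluded by these libraries.

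**Figure D5:**
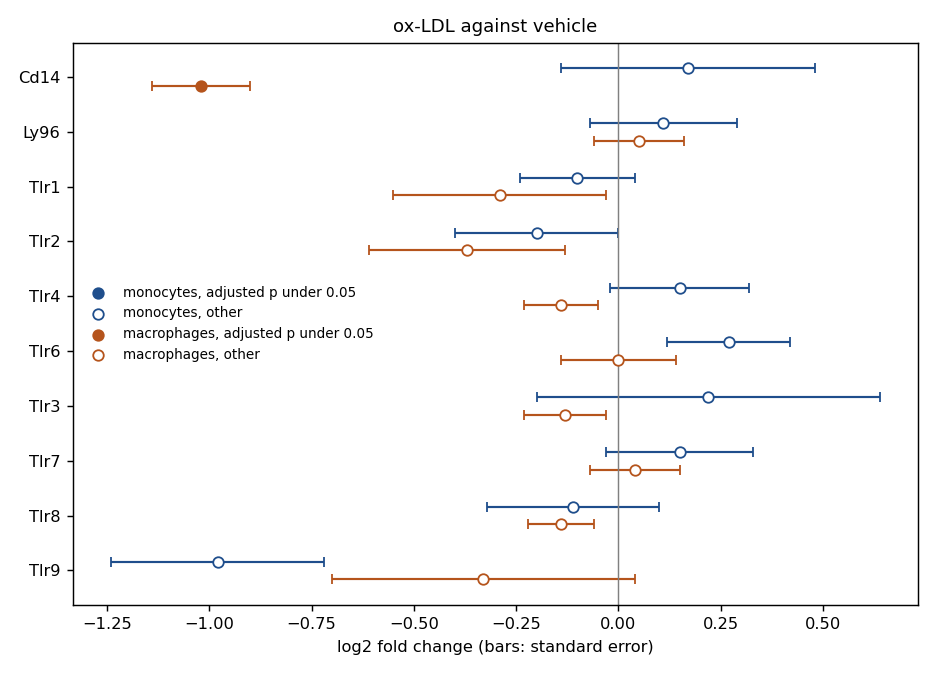
Log2 fold change of each member with ox-LDL against vehicle (horizontal axis) in monocytes and in macrophages. Bars are standard errors, and the filled point has an adjusted p under 0.05. Cd14 in macrophages at -1.02 is the filled one, and Tlr9 in monocytes at -0.98 has a wider error of 0.26.

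Whether the ox-LDL effect differed between the cell types was tested as a contrast over all 4 groups, and 0 of 10 members were called, where 0.063% of 17466 genes were. An unadjusted p under 0.05 was reached by 1 member, Cd14, and 1261 genes, and neither DESeq2 nor limma voom called a member. For Cd14 the difference (macrophages minus monocytes) was -1.17 ± 0.34 on the log2 scale (adjusted p = 0.36). Over the alternatives it ran from -1.33 to -1.01 and the adjusted p from 0.067 to 0.61, the lowest without the monocyte libraries high in neutrophil markers (-1.29 ± 0.32). A difference in the Cd14 response between the cell types was thus not called. For Tlr9 the difference was 0.68 ± 0.46 (adjusted p = 0.82), and for the other 8 members it lay between -0.32 and 0.01.

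The remaining receptors of the family were also read. Tlr13, which senses bacterial ribosomal RNA in the mouse, was more abundant than any endosomal member, at 131 ± 29.0 TPM in monocytes with vehicle and 298 ± 55.6 in macrophages with vehicle (log2 fold change 1.12 ± 0.14; adjusted p = 9.4e-06). Tlr11 and Tlr12, receptors of protozoan profilin, and Tlr5, the flagellin receptor, were lower in macrophages, with fold changes of -6.14 ± 0.53, -2.69 ± 0.54 and -2.74 ± 0.41. Tlr11 had 302 to 581 counts a library in monocytes and 0 to 12 in macrophages with vehicle. Cd180 (RP105, a relative of TLR4) and its partner Ly86 (MD-1) were higher in macrophages, by 0.65 ± 0.19 and 0.47 ± 0.14. With ox-LDL in macrophages, Ly86 fell from 68.5 ± 9.11 to 50.3 ± 3.16 TPM (-0.45 ± 0.11, adjusted p = 0.047). It was the only 1 of 5 tested there that edgeR called, where 2.35% of all genes were called. With limma voom 0 of 5 were called.

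Of the genes that fold, move and cut the receptors, 9 of 15 were higher and 1 lower in macrophages with vehicle (median log2 fold change 0.76). The 10 called are near the share over all genes, 63.7%, of which 28.5% were higher and 35.1% lower (median -0.09). Ctsl and Ctsb, cathepsins that can cleave endosomal receptors, rose by 3.54 ± 0.23 and 2.52 ± 0.17, and Rab7b, a regulator of late endosomes, by 1.52 ± 0.12. Unc93b1, the escort that carries the endosomal receptors, had 825 ± 116 TPM in monocytes and 1692 ± 177 in macrophages with vehicle. Cnpy3, a folding partner of several receptors, was the lower one (-0.83 ± 0.10). The counts with ox-LDL were again 9 and 1, where 65.4% of all genes were called (30.3% higher and 35.0% lower). With ox-LDL against vehicle in macrophages 2 of 15 were called, where 2.35% of all genes were (0.976% higher and 1.38% lower). They were Rab7b (0.41 ± 0.09) and Hsp90b1, the chaperone gp96 (0.35 ± 0.08), both higher.

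Adaptors and kinases gave 6 of 29 higher and 15 lower in macrophages with vehicle (median -0.28, beside the same 63.7% of all genes called and median of -0.09). Ikbke, a kinase of the interferon arm, rose by 2.78 ± 0.24, and Peli1, a ubiquitin ligase, fell by a log2 value of -1.64 ± 0.15. Myd88 was at 76.8 ± 9.02 and 74.6 ± 6.04 TPM. With ox-LDL in macrophages 2 of 29 were called, both lower, where 2.35% of all genes were called and 1.38% were lower. They were the transcription factors Irf7 (-1.09 ± 0.14, adjusted p = 0.0012) and Irf5 (-0.27 ± 0.06, adjusted p = 0.032). Irf7, which acts downstream of TLR7 and TLR9, was at 13.4 ± 3.04 TPM with vehicle and 6.30 ± 0.845 with ox-LDL. Among brakes on the signal, 4 of 18 were higher and 10 lower in macrophages with vehicle, and with ox-LDL the counts were 5 and 7, again beside 63.7% and 65.4% of all genes. Trem2 rose by 3.98 ± 0.22, while Socs1 and Sigirr, inhibitors of the pathway, had values of -5.13 ± 0.22 and -3.60 ± 0.24. For ox-LDL, edgeR called 0 of the 18 in each cell type, beside 0.0241% of all genes in monocytes and 2.35% in macrophages. In each cell type 1 of the 18 had an unadjusted p under 0.05. DESeq2 called 0 in monocytes and 1 in macrophages, and limma voom 0 in both.

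Scavenger and integrin partners included Cd36, which rose with ox-LDL in both cell types, by 1.58 ± 0.22 in monocytes (adjusted p = 0.026) and 0.75 ± 0.10 in macrophages (0.0013). It was the only 1 of these 78 pathway genes that edgeR called in monocytes, where 0.0241% of all genes were called. Of the 78, 17 had an unadjusted p under 0.05, DESeq2 called 7 and limma voom 1. In macrophages Cxcr4, a chemokine receptor found in lipopolysaccharide receptor clusters, was lower (-0.51 ± 0.12, adjusted p = 0.049). So with ox-LDL in macrophages 1 of 10 was higher and 1 lower, where 0.976% and 1.38% of all genes were. Between the cell types 5 of 10 were higher and 2 lower in macrophages with vehicle, and 4 and 2 with ox-LDL, near the 63.7% and 65.4% of all genes called. For the difference of the ox-LDL effect 0 of the 78 were called by edgeR, DESeq2 or limma voom, and 8 had an unadjusted p under 0.05. There edgeR called 0.063% of all genes.

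To show which other genes followed the members, each profile of log2 CPM (counts scaled to a common library total), centred on its mean over the 22 libraries, was set against those of 9181 genes. The likeness is the root mean square difference, in log2 units, and it is a description since all profiles share the same libraries. Nearest to Cd14 was Pid1 (0.36), followed by Tm6sf1 (0.38) and Mob3b (0.39). Nearest to Tlr1 were Bcl3 (0.24), Ptafr (0.26) and Icam1 (0.27), and to Tlr2 Hif1a and Ms4a6c (both 0.24) and Arhgef10l (0.26). Galc and Sept8 were among the 3 nearest of both Tlr7 (0.20 and 0.22) and Tlr8 (0.25 and 0.26), with Smim13 (0.22) for Tlr7 and Man1c1 (0.24) for Tlr8. For Tlr4 they were Serinc1 (0.17), Abcd3 and Stard8 (both 0.18), and for Tlr6 Snap23 (0.14) and Tcp11l1 (0.15). For Tlr3 they were Rab34 (0.29), Wwp1 (0.30) and Kif3a (0.32), and for Tlr9 Csf2rb and Marcks (both 0.34) and Enox2 (0.35). Ly96 was followed most closely by Chchd2 (0.10), Atp5j and Rbx1 (both 0.12).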

How the data were processed

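RNA of 22 libraries was measured by sequencing with a SMARTer low-input kit, per the labels' protocols. Reads were aligned with STAR 2.7.9a to GRCm38 and counted with featureCounts 2.0.3 from Subread, per the submitters' processing notes. The deposited tables hold whole, unscaled counts for each gene. The deposited CPM are counts divided by the library total and multiplied by 1000000, the deposited FPKM are CPM per kilobase, and the deposited TPM sum to 1000000 a library; 0 genes departed from the CPM and FPKM relations. Settings for strand, multi-mapping and annotation were not given in the sources used here, so reads shared by Tlr1 and Tlr6 or by overlapping genes cannot be assigned.

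Levels are the deposited TPM. Changes were fitted on the counts with TMM factors in edgeR 4.0.16 under R 4.3.3, after filterByExpr, by a 2-sided quasi-likelihood F test and Benjamini-Hochberg adjustment over all genes tested; a gene is called at an adjusted p under 0.05. Each of 4 comparisons used its 2 groups, and the difference of ox-LDL effects used all 4. The fit was tested on simulated data. Errors of fold changes are SE from the F statistic. All 10 members passed the filter in each comparison; no library was left out of the comparisons as reported.

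Alternatives were DESeq2 1.42.0, limma 3.58.1 voom, other size factors, no filter, 1 fit over 4 groups, fits without or with the neutrophil, erythroid or macrophage library sets (the erythroid and macrophage sets were added after the data were seen), and leaving out each library. The members, the 5 pathway lists (78 genes) and the 8 marker lists were chosen with earlier results of these data known. All members are named; a pathway list names up to 4 called genes a direction, or its 2 most abundant, and Unc93b1, Myd88 and the other Toll-like receptors are named besides; likeness names the 3 nearest genes with at least 5 CPM and an assigned name (pseudocount 0.5 CPM), of which 1 is not reported here. Sequences are from RefSeq tables and GENCODE transcripts, both on GRCm38. Tlr4, Tlr7 and Ly96 have no promoter sequence shown.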

Additional observations from a re-analysis of the deposited data

Results flagged for a closer look

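Over 40 groups of 5 or 6 libraries, 1 for each member and group, 2 held a library whose gap to the nearest other was large for the range of the group; chance gives about 1 in 20 groups. Ly96 in monocytes with vehicle was at 39.8 TPM in replicate 6, while the other 5 libraries lay between 55.5 and 63.2. Replicate 6 is 1 of the 4 libraries high in neutrophil markers. Tlr7 in macrophages with ox-LDL was at 65.8 TPM in replicate I, while the other 5 lay between 87.8 and 99.0. Replicate I belongs to the set of 4 macrophage libraries that stood apart.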

How the results depend on the processing

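No member called in the report changed direction under any alternative run. Of 1080 alternative values of single members 1026 kept their direction and call, 13 lost the call, 3 gained it and 38 turned sign, all 38 among values that were not called. The members called were 1 with DESeq2 in monocytes with ox-LDL, where 133 of 14800 genes were called. In macrophages with ox-LDL 0 were called in the fit over all 4 groups, beside 80 of 17466 genes. With the macrophage set as a covariate 2 were called, beside 807 of 14543 genes, and in the set of 4 alone 2, beside 265 of 14722 genes. Leaving out 1 library gave 7 to 9 called members for macrophages against monocytes with vehicle, and left the other counts at 0, 1, 8 and 0. The cause was not tested.

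The values that turned sign were small. For ox-LDL in monocytes, the libraries high in neutrophil markers alone gave -0.07 for Cd14, 0.00 for Ly96 and 0.17 for Tlr8, and the others alone gave -0.02 for Tlr4. Leaving out 1 library gave -0.02 to 0.34 for Cd14, 0.00 to 0.23 for Ly96 and -0.03 to 0.46 for Tlr3. For ox-LDL in macrophages, library totals gave 0.00 for Ly96 and -0.02 for Tlr7, the set of 7 gave -0.06 for Ly96, and the set of 4 gave 0.00 for Tlr6 and -0.02 for Tlr7. Leaving out 1 library gave 0.00 to 0.16 for Ly96, -0.07 to 0.10 for Tlr6 and -0.02 to 0.11 for Tlr7. For the difference of effects, Tlr7 was 0.04 without the libraries high in neutrophil markers, and Tlr8 was -0.01 with library totals, -0.03 with no filter and -0.05 with voom. Leaving out 1 library gave -0.16 to 0.07 for Ly96, -0.29 to 0.01 for Tlr1 and -0.10 to 0.15 for Tlr8.

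The ratio of surface to endosomal levels was 6.45 in monocytes with vehicle, 2.33 in macrophages with vehicle and 2.15 with ox-LDL as a ratio of geometric means of TPM + 1. With Tlr1 and Tlr6 left out it was 5.42 and 4.95 in monocytes with vehicle and with ox-LDL, and 1.36 and 1.12 in macrophages. With Tlr13 added to the endosomal sum it was 1.48 and 1.19 in monocytes and 0.621 and 0.456 in macrophages. Genes called for ox-LDL in monocytes went from 4 to 6 with library totals, 9 with no filter, 7 with voom, 133 with DESeq2, 259 in the fit over 4 groups, 122 with the neutrophil set as a covariate and 0 by edgeR within the low or the high libraries alone (2689 and 643 genes at an unadjusted p under 0.05) and without the libraries low in erythroid markers (1432 genes). In macrophages they went from 342 to 670 with DESeq2, 80 in the fit over 4 groups and 807 with the macrophage set as a covariate. For the difference of effects they went from 11 to 5 with library totals, 50 with DESeq2, 129 without the libraries high in neutrophil markers and 4 without those low in erythroid markers. Counts of Tlr3 in monocytes (14 to 64) and Tlr9 in macrophages (13 to 60) limit their precision. No paired analysis was run, because the labels name no pairs and the groups share no replicate numbers. The main fits took no account of the library sets seen in the data. Alternatives had the neutrophil set as a covariate in monocytes and the macrophage set in macrophages.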
